A study of Schizosaccharomyces pombe with 9 samples.

Results

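The mRNA of *pma1* (SPAC1071.10c), the gene of the plasma membrane proton pump of fission yeast, was examined in RNA recovered with the histone deacetylase Clr3. The gene lies on chromosome I of build ASM294v2, from 3871642 to 3876111 on the minus strand. Every position called on that strand between these bounds was taken. These were 24 of the 6661 positions of crosslinked replicate 1, 28 of the 4824 of crosslinked replicate 2 and 1 of the 135 of the library made without crosslinking. *pma1* was chosen by its conversions: it held more of them than any other protein-coding gene in both crosslinked libraries. Its levels are therefore described without a test.

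The method was PAR-CLIP, in which cells take up the uridine analogue 4-thiouracil and are irradiated, so that proteins become fixed to the RNA they touch. Reverse transcriptase then reads a fixed 4-thiouridine as C, and a T-to-C change in the reads marks the contact. There were 2 crosslinked replicates and 1 no-crosslink library, with no library from untagged cells, so RNA fixed to Clr3 and RNA fixed to other proteins on the beads cannot be told apart. All 3 came from 1 genotype: mating type h+ with *ura4-delta18*, *leu1-32* and *ade6-M216*, the *ura4+* marker at imr1R(NcoI) in a centromere, and *clr3-3HA-TAP::kan MX*, which gives Clr3 its tag. Cells grew at 30 °C in minimal medium with 10 mg/l uracil, 4% glucose and 100 µM 4-thiouracil, followed by another 900 µM for 4 h. The crosslinked cells received 12 J/cm2 at 365 nm. The protocol text of the no-crosslink library is the same and also mentions irradiation, so it is taken as a control from its title and the design text. A further 6 RNA-seq samples, wild type and *seb1-1*, were not analysed here.

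Pma1 is a P-type ATPase. It spends ATP to push protons out of the cell, which sets the pH of the cytosol and builds the membrane potential and proton gradient that nutrient uptake draws on. In yeasts it is among the most abundant proteins of the plasma membrane. Clr3 removes acetyl groups from histones as part of SHREC, a complex known for silencing heterochromatin.

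The annotated mRNA is unspliced and 4470 nt long. Its 5′ untranslated region (UTR) is 1432 nt long, from 3876111 down to 3874680. The coding sequence (CDS) takes 2760 nt, from 3874679 down to 3871920, and the 3′ UTR 278 nt, from 3871919 down to 3871642. The gene holds 1700 T positions, of which 633 are in the 5′ UTR, 937 in the CDS and 130 in the 3′ UTR. A non-coding RNA on the other strand, SPNCRNA.92 (3875656 to 3876105), overlaps the start of the 5′ UTR. No position was called on the plus strand within the bounds of *pma1*, with 0 in each crosslinked library and 0 in the no-crosslink library.

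The stretches below, 25 nt each, read 5′ to 3′ in the sense of the mRNA from the RefSeq genome, with the converted T in capitals. They were chosen as the position called in both replicates, the pair just before the start codon, those with most conversions in each replicate, the highest occupancy, and the no-crosslink position.
3871820, 3′ UTR, called in both replicates: aatacacgagttTcctgccggcttg
3874700, 5′ UTR, replicate 1: cgttatctatctTtctcattacttt
3874697, 5′ UTR, replicate 2: tatctatctttcTcattactttcgt
3874408, CDS, replicate 1: ccatgtctgaagTagaagagcgccg
3873557, CDS, replicate 1: gaagttctttgcTctgacaagactg
3873497, CDS, replicate 1: cccttcactgtcTctggtgtttccg
3871981, CDS, replicate 2: accagcgttctaTtgaggaccttgt
3876060, 5′ UTR, replicate 1: cttctcgttagcTactgttcgatca
3871886, 3′ UTR, no-crosslink library: taatgttttttaTtaaacgttttat

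In total *pma1* carried 127 conversions in 10635 reads in crosslinked replicate 1 and 99 conversions in 6676 reads in crosslinked replicate 2. The no-crosslink library had 2 conversions in 15 reads. A read that covers more than 1 called position can enter these sums more than once. Of all nuclear conversions, *pma1* thus held 0.685% (Wilson 95% interval 0.576 to 0.814) in replicate 1 and 0.928% (0.763 to 1.13) in replicate 2, against 0.226% (0.062 to 0.82) without crosslinking. The control value rests on 2 converted reads. These intervals treat every count as independent and leave out the spread between libraries. A read counted more than once breaks this, as would copies of 1 molecule, and no counts by molecular identifier were at hand. The denominators also differ in kind. Positions in mRNA held 10065 of 18539 nuclear conversions in replicate 1 and 6039 of 10672 in replicate 2, but 160 of 885 without crosslinking. Of mRNA conversions alone *pma1* held 1.26%, 1.64% and 1.25%, so the contrast with the control depends on the denominator.

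Among the 5113 protein-coding genes *pma1* ranked first for conversions and first for reads in both crosslinked libraries. By number of positions it ranked 3 in replicate 1 and 1 in replicate 2. Its share of the reads at mRNA positions was larger than its share of their conversions, at 3.80% of reads and 1.26% of conversions in replicate 1 and 6.55% and 1.64% in replicate 2. In the no-crosslink library, where 70 mRNA positions were called, it had 0.616% of reads and 1.25% of conversions. The mean over the crosslinked libraries was 5.18% ± 1.94 of mRNA reads and 1.45% ± 0.267 of mRNA conversions (SD, n = 2). The labels do not say that the replicates came from separate cultures, so this SD may measure technical spread alone.

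**Figure D1:**
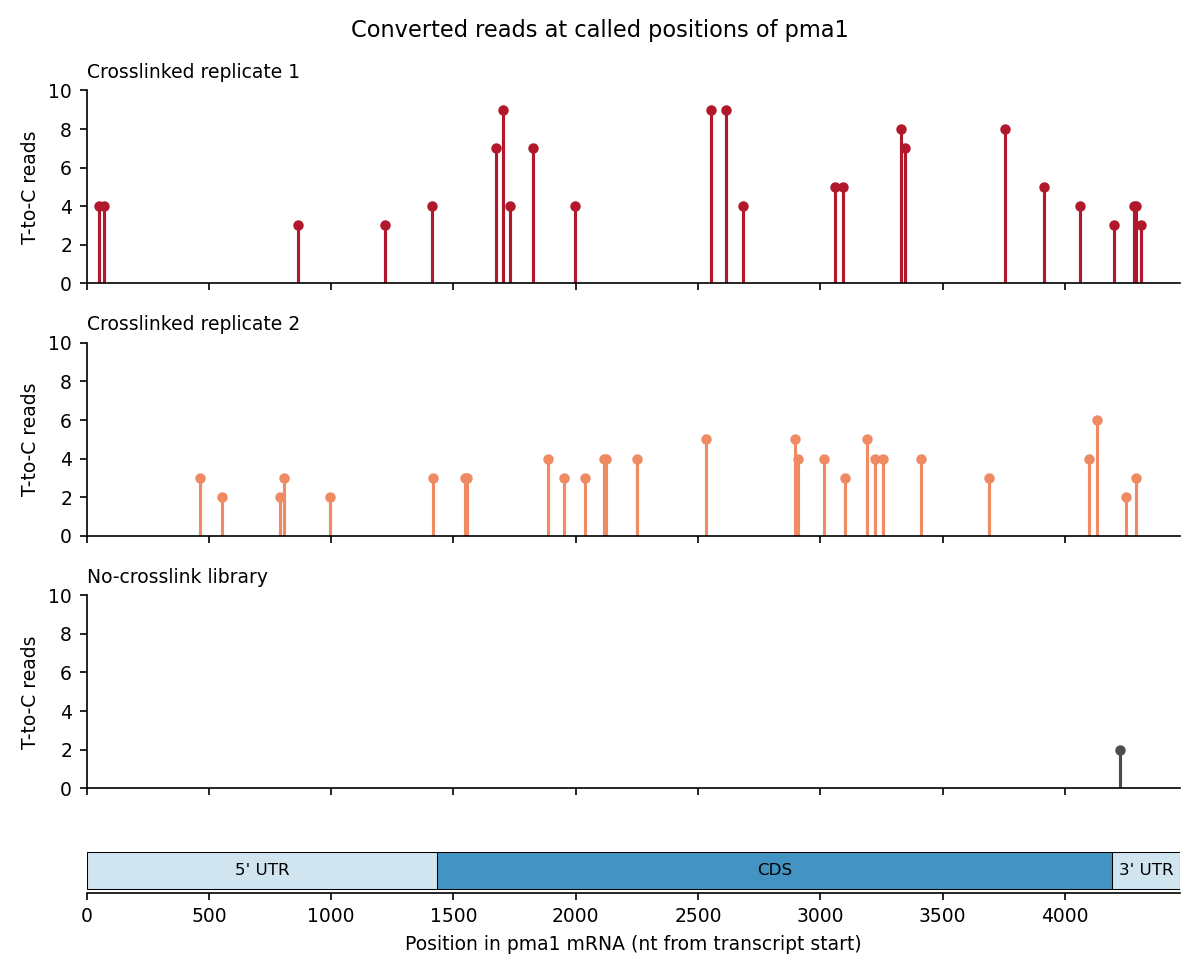
Converted reads (y axis) at each called position of the *pma1* mRNA (x axis, nt from the annotated transcript start) in the 3 libraries, with the gene parts drawn below. Conversions were found in all 3 parts of the mRNA in both crosslinked libraries, with at most 9 at a position in crosslinked replicate 1, 6 in crosslinked replicate 2 and 2 at the lone no-crosslink position.

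No single nucleotide dominated the gene. The highest position held 7.09% of the *pma1* conversions in replicate 1 and 6.06% in replicate 2. Conversions per position had a median of 4 in replicate 1, from 3 to 9, and a median of 3.5 in replicate 2, from 2 to 6. Reads per position ran from 145 to 880 with a median of 423 in replicate 1, and from 45 to 430 with a median of 227.5 in replicate 2. No *pma1* call rested on 1 converted read. Of the nuclear positions, 51.8% (replicate 1) and 65.1% (replicate 2) were such calls, against 0% without crosslinking. In both replicates such calls had at most 3 reads. The depth of the *pma1* positions thus left no room for them, and their absence is no result about the gene.

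The coding sequence held most of the conversions. In replicate 1 it had 15 positions with 95 conversions, 74.8% of those in the gene, and in replicate 2 it had 20 positions with 79 conversions, 79.8%. Its share of the reads was larger still, at 81.7% and 89.1%. Its pooled conversion rate was the lowest of the 3 parts, at 1.09% in replicate 1 and 1.33% in replicate 2. The 5′ UTR had 1.59% and 2.65%, and the 3′ UTR 1.73% and 3.14%. The rate of a call depends on its depth, as described below. The UTRs together hold 44.9% of the T positions of the gene but had 22.7% ± 3.53 of its conversions and 33.0% ± 6.31 of its positions (SD, n = 2). Per 100 T, called positions numbered 1.60 and 2.13 in the CDS, 0.79 and 0.948 in the 5′ UTR, and 3.08 and 1.54 in the 3′ UTR, each in replicates 1 and 2. The 5′ UTR had the lowest density in both replicates, and the order of CDS and 3′ UTR turned round between them. Median reads at called positions were 615 and 285 in the CDS, 239 and 68.5 in the 5′ UTR, and 204 and 79.5 in the 3′ UTR. The depth at T that were not called is not listed, so calls per 100 T cannot be told apart from coverage. Positions of 1 transcript are not independent, and no test was made of these shares.

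In the 5′ UTR, replicate 1 had 5 positions with 18 conversions and replicate 2 had 6 with 15. Near the transcript start, replicate 1 had 4 conversions in 239 reads at 3876060, nt 52 of the mRNA, and 4 in 245 reads at 3876041, nt 71. Replicate 2 had none nearer to these than 394 nt, its first position being 3875647 at nt 465 with 3 of 165 reads. After nt 71 replicate 1 had no call until nt 866, a stretch of 795 nt and the widest gap in either library, with 338 T positions between.

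Both replicates had a position just before the start codon, at neighbouring but different T. At 3874700, 21 nt before the first base of the coding sequence, replicate 1 had 4 of 294 reads converted (1.36%, Wilson 95% interval 0.53 to 3.45). At 3874697, 18 nt before it, replicate 2 had 3 of 154 reads converted (1.95%, 0.665 to 5.57). The 2 sequences printed for this pair overlap in a pyrimidine-rich stretch.

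Within the coding sequence calls were found in both its first and its second part, with wide gaps between some of them. Replicate 1 had 8 positions with 53 conversions in the first part of the CDS, cut at its midpoint, and 7 with 42 in the second. Replicate 2 had 9 positions with 33 conversions in the first part and 11 with 46 in the second. These parts hold 451 and 486 T positions. Replicate 1 had no call between nt 1999 and 2555 of the mRNA, a stretch of 556 nt with 208 T between, and replicate 2 had none between nt 3690 and 4099, 409 nt with 154 T. Replicate 2 had calls within the first gap and replicate 1 within the second.

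In replicate 1 the most converted positions were 3874408 with 9 of 657 reads (1.37%, 0.722 to 2.58), 3873497 with 9 of 668 (1.35%, 0.71 to 2.54) and 3873557 with 9 of 880 (1.02%, 0.539 to 1.93). None of these was called in replicate 2, whose nearest calls lay 147, 82 and 22 nt away. The most converted position of replicate 2 was 3871981, 2699 nt into the CDS, with 6 of 380 reads (1.58%, 0.726 to 3.4). The nearest call of replicate 1 lay 70 nt from it. Within codons, replicate 1 had 5 positions at the first base, 4 at the second and 6 at the third, and replicate 2 had 2, 9 and 9. Of all T positions of the CDS 18.2% are at the first codon base, 31.1% at the second and 50.7% at the third, so calls were found at every codon base.

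In the 3′ UTR replicate 1 had 4 positions with 14 conversions in 808 reads, at 3871909, 3871830, 3871820 and 3871802. Replicate 2 had 2, at 3871861 with 2 of 56 reads and at 3871820 with 3 of 103. Those at 3871830, 3871820 and 3871802 lie close together, 90, 100 and 118 nt after the stop codon. The position of the no-crosslink library was also in the 3′ UTR, at 3871886, 34 nt after the stop codon, with 2 of 15 reads converted (13.3%, 3.74 to 37.9). It was called in neither crosslinked library, whose nearest call lay 23 nt away.

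The positions of the replicates were then overlaid. Of the 51 different positions called in crosslinked libraries, 1 was called in both: 3871820, with 4 of 252 reads in replicate 1 (1.59%, 0.619 to 4.01) and 3 of 103 in replicate 2 (2.91%, 0.995 to 8.22). The intervals of its conversion rate overlap. It was 4.17% of the positions of replicate 1 and 3.57% of those of replicate 2. Over all mRNA positions with at least 2 conversions, 2.13% of those in replicate 1 were called in replicate 2 and 4.28% of those in replicate 2 were called in replicate 1. At 100 or more reads, a limit chosen after the data were seen, *pma1* kept 24 and 23 positions, of which 4.17% and 4.35% were shared. All mRNA positions of that depth were shared at 5.26% and 10.0%. The shared count of *pma1* was near or under this background and is no result about the gene.

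Allowing 3 nt between calls added the pair before the start codon, for 2 matches. Within 10 nt, 4 positions of replicate 1 had a call of replicate 2, and within 20 nt 5 did. The median distance to the nearest call of the other replicate was 62.5 nt from replicate 1 and 73 nt from replicate 2. The number of positions was thus close in the replicates, at 24 and 28, while the nucleotides were mostly different. A position absent from a table may have been covered but not called, since only called positions are listed.

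The converted share of reads was low in *pma1*. Pooled over its positions it was 1.19% (Wilson 95% interval 1 to 1.42) in replicate 1 and 1.48% (1.22 to 1.8) in replicate 2, or 1.34% ± 0.204 (SD, n = 2). Over all mRNA positions with at least 2 conversions it was 2.59% in replicate 1 and 3.32% in replicate 2. Single *pma1* positions ran from 0.941% to 2.07% in replicate 1 and from 1.04% to 4.44% in replicate 2. Among the 14 protein-coding genes with at least 10 positions in each crosslinked library, *pma1* ranked 13 from the top in this rate in both. In mean reads per position it ranked 2 and 3 of the same 14, with 443 and 238 reads.

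**Figure D2:**
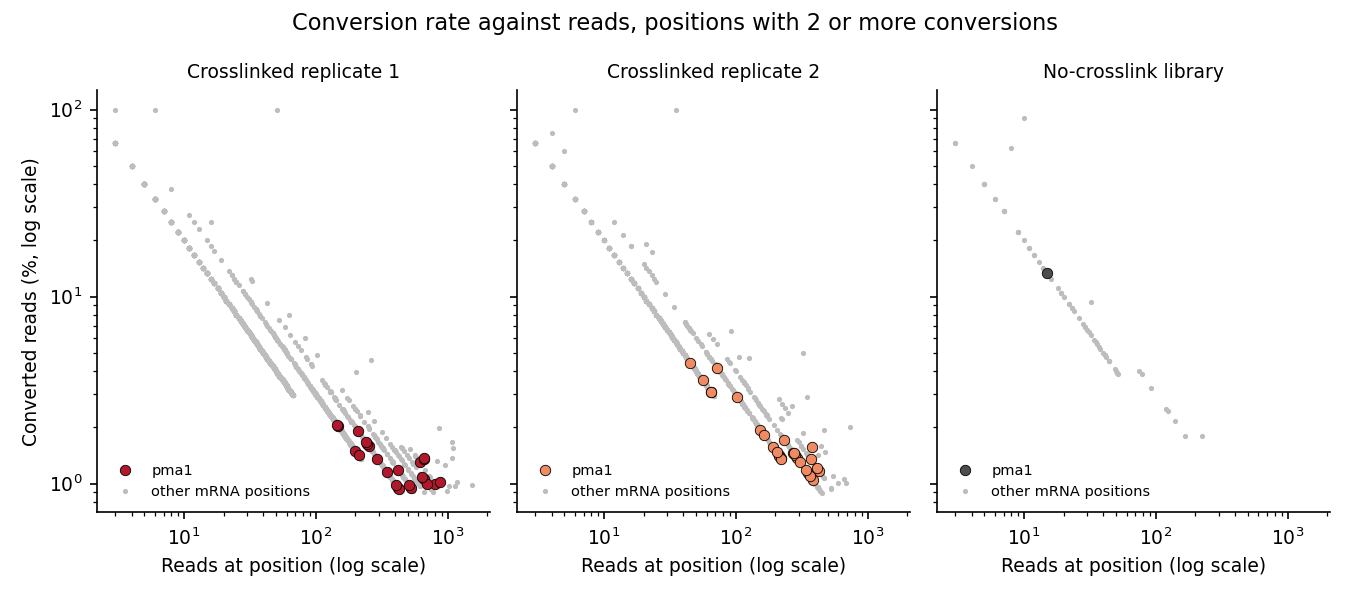
Converted share of reads (y axis, %, log scale) against reads (x axis, log scale) for mRNA positions with at least 2 conversions, *pma1* coloured and other mRNA positions grey, in 1 panel per library. The *pma1* positions sit at the deep, low-rate end in both crosslinked libraries, between 0.941% and 4.44%, and the no-crosslink position at 15 reads and 13.3%.

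The rate of a call depends on its depth, because the fewest conversions that were called rise with reads. In replicate 1 calls with 3 conversions reached at most 221 reads and calls with 4 at most 438; in replicate 2 these limits were 225 and 450. With the fewest conversions called at their depth stood 16 of the 24 *pma1* positions in replicate 1 (66.7%) and 24 of 28 in replicate 2 (85.7%). The same held for 89.0% and 88.4% of all mRNA positions with at least 2 conversions. Most calls in *pma1*, like most calls in other mRNAs, thus lay at the edge of what was listed. Above 500 reads, where replicate 1 had 10 *pma1* positions, the authors' p took only 2 values, 0.00136 and 3.18e-04.

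Among positions of like depth the median rate of *pma1* lay within the quartiles of other mRNAs in 5 of 6 groups and below them in 1. In replicate 1 the median was 1.04% at its 10 positions of 500 to 1000 reads, against 1.03% at 60 positions of other mRNAs (quartiles 0.962 to 1.13). At 250 to under 500 reads it was 1.15% over 7 positions, against 1.20% over 210 others (1.06 to 1.43). In replicate 2 at that depth it was 1.31% over 13 positions, against 1.30% over 71 others (1.09 to 1.47). At 100 to under 250 reads it was 1.67% over 7 positions in replicate 1, against 1.91% over 421 others (1.62 to 2.4). At that depth in replicate 2 it was 1.52% over 10 positions, below the lower quartile of 138 others, whose median was 2.08% (1.67 to 2.65). At 40 to under 100 reads in replicate 2 it was 3.57% over 5 positions, against 3.92% over 402 others (3.39 to 4.44). The low overall rate of *pma1* thus went with the depth of its positions, whose part in it was not tested. Most calls, in *pma1* and in other mRNAs, had the fewest conversions called at their depth. Like rates at like depth were therefore largely set by the calling and are no result about the gene.

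The deposited tables also give an occupancy, which is the conversions divided by a whole number for each position. That number, obtained by dividing the conversions by the occupancy, was 5766 at the shared position 3871820 in both replicates. It is taken here for the depth of some reference library and called the reference depth, though no source used here says what that library was. Over the *pma1* positions its median was 3190 in replicate 1, from 262 to 6756, and 3909 in replicate 2, from 492 to 15151. The no-crosslink position had 4336.

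Reference depth was lowest at the start of the 5′ UTR, with 262 at 3876060 and 469 at 3876041, and highest near the end of the CDS, with 15151 at 3872013 and 11122 at 3871981. The 239 and 245 reads at the first pair, both from replicate 1, were 91.2% and 52.2% of the reference depth. The 351 and 380 reads at the last pair, both from replicate 2, were 2.32% and 3.42%. Over all *pma1* positions the median was 13.8% in replicate 1 and 6.29% in replicate 2, so the 2 pairs also differ by library.

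**Figure D3:**
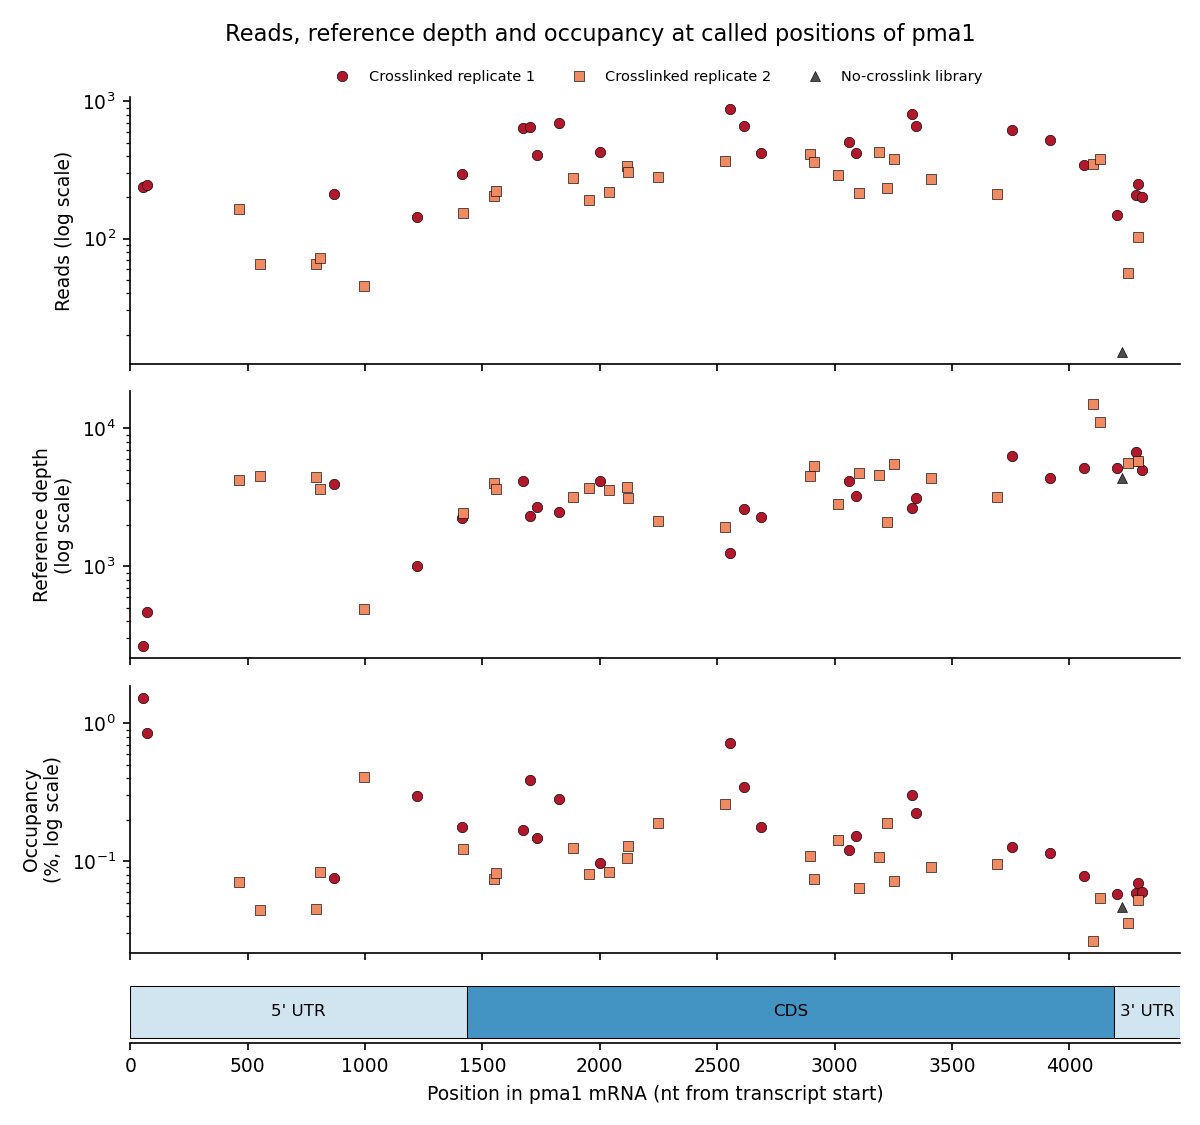
Reads, reference depth and occupancy (y axes, log scales, occupancy in %) at the called positions of *pma1* against nt from the transcript start, with symbols for the 3 libraries and the gene parts below. Occupancy was highest at the 5′ end, at 1.53%, where reference depth was 262, and low in the 3′ UTR, between 0.0359% and 0.0694% in the crosslinked libraries.

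Occupancy therefore differed along the mRNA more than the conversion rate did. Its highest values in replicate 1 were 1.53% at 3876060, 0.853% at 3876041 and 0.723% at 3873557. In replicate 2 the highest were 0.407% at 3875115, a 5′ UTR position with 2 of 45 reads and a reference depth of 492, and 0.258% at 3873579 in the CDS. The position 3873579 lies 22 nt from 3873557, and reference depth was low at both, at 1937 and 1244. The lowest occupancies were 0.0576% at 3871909 in replicate 1 and 0.0264% at 3872013 in replicate 2. The median was 0.161% in replicate 1 and 0.0832% in replicate 2, and the no-crosslink position had 0.0461%.

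The 3′ UTR positions had the lowest median occupancy in both replicates, at 0.0595% in replicate 1 and 0.0439% in replicate 2. The CDS had 0.168% and 0.0931%. The 5′ UTR had 0.299% and 0.077%, so that its place relative to the CDS differed between the replicates. Pooled over the gene, occupancy was 0.118% ± 0.0536 (SD, n = 2), and the replicate values of 0.156% and 0.080% lay far apart.

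Against other mRNAs of like depth, the deepest positions of *pma1* had a lower reference depth and a higher occupancy. In replicate 1, at 500 to 1000 reads, the median reference depth was 2878.5 for *pma1* and 8493.5 for other mRNAs, and the median occupancy 0.254% and 0.0729% (quartiles of the others 0.0284 to 0.167). In replicate 2, at 250 to under 500 reads, the medians were 4383 and 18630 for reference depth and 0.108% and 0.0265% (0.0146 to 0.0524) for occupancy. The *pma1* occupancy medians thus lay above the upper quartile of the others in both groups. In the middle groups they were above the median of the others but within their quartiles, at 0.148% against 0.0491% (0.0168 to 0.172) for 250 to under 500 reads in replicate 1 and 0.0812% against 0.0289% (0.0115 to 0.0829) for 100 to under 250 reads in replicate 2. Median reference depth in these groups was 3260 for *pma1* against 9752 for the others, and 3694 against 10878. At 100 to under 250 reads in replicate 1 the occupancy medians were 0.0756% for *pma1* and 0.0872% for the others, and at 40 to under 100 reads in replicate 2 they were 0.0452% and 0.105%. In the shallowest group of each replicate the *pma1* median was thus below that of the others. Occupancy is conversions divided by reference depth, and most mRNA calls had the fewest conversions called at their number of reads. At like reads the differences in occupancy are therefore not separate from those in reference depth. *pma1* was also chosen by its conversions. Reads themselves contain both the abundance of an RNA and how often it was recovered, which cannot be told apart here.

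The bases around the converted T were examined because the protocol trims the RNA with RNase T1, an enzyme that cleaves behind G. A G followed directly at 10 of 24 positions in replicate 1 (41.7%) and 11 of 28 in replicate 2 (39.3%), whereas it follows 21.2% of all T positions in *pma1*. Positions of other mRNAs with at least 2 conversions had a G next in 36.8% and 37.0%, against 20.6% of the T positions of all protein-coding genes. The *pma1* shares of this following G were thus near those of other mRNAs, and the part of the enzyme was not tested. The base before the converted T was an A at 20.8% of *pma1* positions in replicate 1 and 28.6% in replicate 2, against 19.6% over all T of the gene and 41.7% and 38.2% (replicates 1 and 2) at positions of other mRNAs. It was a T at 33.3% and 35.7%, against 39.4% over all T of the gene and 28.7% and 29.3% in other mRNAs. It was a C at 37.5% in replicate 1 and 17.9% in replicate 2, against 22.9% over all T of the gene and 13.5% and 15.1% in other mRNAs. For C the replicates thus lay on opposite sides of the share in the gene. These shares rest on 24 and 28 positions, and no test was made of them. The 21 nt around a call held a median of 7 T in both replicates, against 9 around all T of the gene. This comparison was not matched for gene part. The CDS held 62.5% and 71.4% of the calls but 55.1% of the T positions. It is 33.9% T, against 44.2% in the 5′ UTR and 46.8% in the 3′ UTR.

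The related gene *pma2* (SPCC1020.01c, III, 793179 to 796301, plus strand) encodes a second proton pump of the same family. Its coding sequence is 72.8% identical to that of *pma1* over 2756 aligned bases, with a longest identical run of 23 nt. All 51 windows of 25 nt around the crosslinked positions of *pma1* occurred once in the nuclear genome and 0 of them in *pma2*. The calls can thus be placed in *pma1* at this length, but no source used here gives the read length. *pma2* had 0 positions in each of the 3 libraries.

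Other P-type ATPases and the vacuolar proton pump were looked up from a list, of which 24 members were in the annotation. Apart from *pma1*, 8 of 23 had a position in both crosslinked libraries, where 29.8% of all protein-coding genes did. With *pma1*, which was chosen by its conversions, it was 9 of 24 (37.5%). These counts are near the share over all genes and are no result about the list. Of the other P-type ATPases 4 of 9 had a position in both: the flippases *dnf1* and *dnf2*, which move lipids across membranes, the related *neo1*, and *pmc1*, known in yeasts as a vacuolar calcium pump. Of the vacuolar ATPase genes 4 of 14 did: *vma3*, a subunit of the membrane ring, *vma5* and *vma13* of the soluble part, and *vph1*, the large membrane subunit.

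All of these had far fewer conversions than *pma1*, which was chosen for holding the most. By mean share of conversions the highest, *dnf1*, had 6 conversions in 21 reads in replicate 1 and 5 in 15 reads in replicate 2. Next, *dnf2* had 9 conversions in 56 reads in replicate 1 and 2 in 6 reads in replicate 2, and *vma3* had 7 in 144 and 2 in 25. The remaining 5 had 1 to 4 conversions in each crosslinked library. In the no-crosslink library *pma1* was the only member of the list with a position.

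By share of conversions over the 3 libraries, the genes nearest to *pma1* among the other 13 with at least 10 positions in each crosslinked library were *ssa2*, *tdh1*, *hsp90*, *ura1* and *met26*. They encode an Hsp70 chaperone, glyceraldehyde-3-phosphate dehydrogenase, the Hsp90 chaperone, an enzyme of pyrimidine synthesis and methionine synthase. Likeness was measured as the Euclidean distance of the shares, which was 0.347 percentage points for *ssa2*, 0.494 for *tdh1*, and 0.667, 0.682 and 0.712 for the others. *ssa2* had 25 and 18 positions in replicates 1 and 2, with 0.572% and 0.6% of conversions, and 0.226% in the no-crosslink library.

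The spread between the replicates was larger for *pma1*, at 0.806% ± 0.172, than for *ssa2*, at 0.586% ± 0.0198 (SD, n = 2 each). Pooled conversion rates were 1.19% and 1.48% in *pma1*, against 1.25% and 2.17% in *ssa2* and 1.31% and 1.59% in *tdh1*. Those of *ura1* were the highest of the 5, at 2.79% and 4.60%, over positions with fewer reads. Pooled occupancy was 0.156% and 0.080% in *pma1*, against 0.0229% and 0.00797% in *tdh1*, whose reference depth was higher. By occupancy *pma1* ranked 6 and 9 among the 14 genes.

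**Figure D4:**
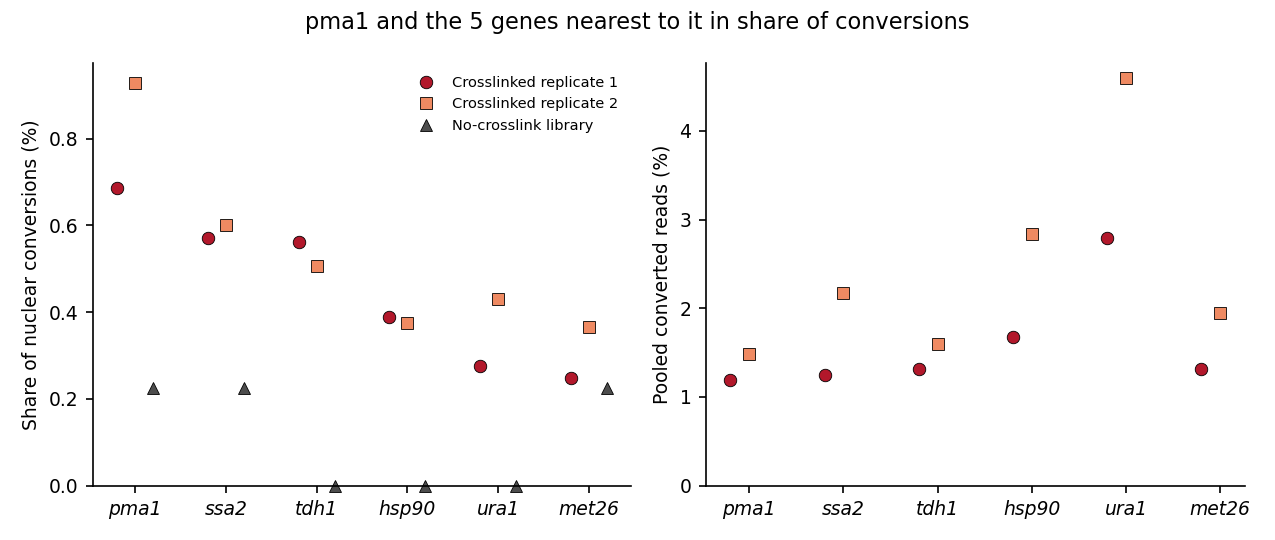
Share of nuclear conversions (left, %) and pooled converted share of reads (right, %) for *pma1* and the 5 genes nearest to it in share, with symbols for the 3 libraries; the right panel has the crosslinked libraries only. *pma1* has the highest share of these genes in both crosslinked libraries, at 0.685% and 0.928%, and the lowest conversion rate, at 1.19% and 1.48%. Of the 14 genes with at least 10 positions in each crosslinked library, *pma1* ranked 13 from the top in this rate. The lowest rates there were 1.17% in replicate 1 and 1.21% in replicate 2, in a gene outside the 5 shown. The highest share of *pma1* was set in advance, because *pma1* was chosen for holding the most conversions.

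Calls outside the gene bounds were sparse on the minus strand. The nearest upstream call in replicate 1 lay 25 nt before the annotated start, at 3876136, with 1 of 3 reads. The nearest downstream call in replicate 1 lay 2822 nt away in *rps1502*, a ribosomal protein gene, with 4 of 349 reads. In replicate 2 the nearest upstream call lay 12523 nt away in *hsp90*, and the nearest downstream call 9337 nt away in *sil1*. The non-coding RNAs SPNCRNA.3728 and SPNCRNA.944, annotated upstream on the same strand, had 0 positions in each of the 3 libraries.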

How the data were processed

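Bowtie 1.1.1 and SAMtools were used with build ASM294v2, per the submitters' processing notes. No source used here names the site caller or its limits, or how reads with multiple matches were treated. The authors' deposited counts are, per called position, reads with a T-to-C change (m) and reads (r), a reading that rests on the values: m never exceeded r, and all 6560, 4742 and 127 nuclear positions were a T. The authors' deposited p-value is that of the call, at most 0.00499. The authors' deposited ratio is the occupancy. The tables list called positions alone, each with 3 or more reads, and the full depth of a library is unknown. Nuclear positions held 586303 and 262083 reads in the crosslinked libraries and 15100 in the control.

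From these, positions were matched by strand to the RefSeq annotation (ASM294v3, whose nuclear coordinates fitted) and summed per gene with Python 3.11.15, pandas 2.3.3 and Biopython 1.88. Positions within structural RNA genes were not counted as mRNA. Code was tested on simulated data. No test was made across libraries: with 2 against 1 the smallest exact permutation p is 1 in 3. The named genes are *pma1*, *pma2*, list members called in both crosslinked libraries, and the 5 genes nearest in share. Members and lists were chosen with earlier results of these data known. Alternatives were positions with at least 2 conversions, at least 20 or 100 reads, other denominators, matches within 1 or 3 nt, medians for pooled values, and single replicates.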

Additional observations from a re-analysis of the deposited data

How the results depend on the processing

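Of 27 alternatives over 6 results, 22 stayed within the spread between the replicates or, for counts, within 1.5 times. This tally does not measure robustness, because many of the alternatives could not move. Every crosslinked *pma1* position had at least 2 conversions and 20 reads, so these limits kept all of them. A value from 1 of 2 replicates always lies within their SD of the mean. The mean share of conversions of 0.806% became 1.07% over positions with at least 2 conversions, 1.18% at 20 or more reads and 1.45% of mRNA conversions alone; each of these has a smaller total by construction, and the *pma1* conversions were the same. In the no-crosslink library the *pma1* share was 0.226% of nuclear conversions and 1.25% of mRNA conversions. Matches between the replicates went up to 2 when 3 nt were allowed. The UTR share was 22.7% of conversions and 33.0% as a share of positions, since UTR positions had fewer conversions each. With 1 crosslinked replicate left out, the share of conversions ranged from 0.685% to 0.928%, the positions from 24 to 28, the conversion rate from 1.19% to 1.48%, the occupancy from 0.080% to 0.156% and the UTR share of conversions from 20.2% to 25.2%. No paired analysis was possible because the crosslinked and no-crosslink libraries share fewer than 2 replicate numbers and no result came from a test. With 1 control library of 127 nuclear positions, a missing call there sets no limit on conversion.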
